A study of Arabidopsis thaliana with 18 samples.

Results

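A set of 74 genes of Arabidopsis thaliana that rose in warmth in wild-type seedlings and in elf7-3, but not or less in the H3.3 knock-down line h3.3kd, was drawn from 27655 genes in a table of RNA-seq values. The genes were chosen by their group means. Each had a mean of at least 5 TPM (a transcript's share of its library, corrected for length) in the wild type Col at 27 °C. With W as the change in log2(mean TPM + 1) from 21 to 27 °C, each had a W of at least 1 in Col, a W in h3.3kd of at most 0.5 of that, and a W in elf7-3 of at least 0.75 of it. Of the 664 warm-induced genes of Col, 91 had a W of at most 0.5 of that of Col in both mutants, and 57 had this in elf7-3 while keeping at least 0.75 in h3.3kd. The changes with warmth, and their differences between genotypes, therefore chose the genes. They are described below, and no test of them is read as a result.

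The seedlings were 7 days old and were harvested whole after growth in short days. Col at 21 °C, Col at 27 °C, h3.3kd at 21 °C, h3.3kd at 27 °C, elf7-3 at 21 °C and elf7-3 at 27 °C had 3 libraries each, 18 in all. The line h3.3kd, also labelled h3.3kd-1, has reduced histone variant H3.3, and elf7-3 carries a mutation in ELF7, which encodes part of the Paf1 complex. How each line was made is not given in the sources used here, and each mutant genotype was a single line. Nothing in the labels says that the libraries of a group came from plants grown apart, so the spread between them may be technical.

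Histone H3.3 is the H3 variant that is put into chromatin outside replication, mostly over transcribed genes, and the Paf1 complex travels with RNA polymerase II and helps it through chromatin. Moderate warmth makes seedlings elongate, a response known as thermomorphogenesis that is driven in large part by PIF transcription factors. Late embryogenesis abundant (LEA) proteins and dehydrins are small hydrophilic proteins that protect cells from drying, accumulate as seeds mature and are switched on in seedlings by abscisic acid, the hormone of drought and seed dormancy. That hormone acts through bZIP transcription factors, which bind promoter elements built around the letters ACGT.

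Promoters of 6 of the genes are shown as examples, picked after the values were seen. RAB18, LTI65, AT3G53040 and ATOEP16-2 were called higher (as defined below) in h3.3kd than in Col at 21 °C. PIL6 and M17, itself annotated as a glycine-rich or LEA protein, were not. Each sequence holds the 300 bases before the annotated start in TAIR10.1 (RefSeq), read along the gene's own strand. Capitals mark ACGTG or its complement CACGT, which overlap where the palindromic G-box CACGTG is present, and this core was chosen for display after the values were seen. The positions are chr5:26519448-26519747 (minus strand) for RAB18, chr5:21236721-21237020 (plus strand) for LTI65, chr3:19666498-19666797 (minus strand) for AT3G53040, chr4:9157171-9157470 (plus strand) for ATOEP16-2, chr3:21830838-21831137 (minus strand) for PIL6 and chr2:17206152-17206451 (plus strand) for M17.
RAB18: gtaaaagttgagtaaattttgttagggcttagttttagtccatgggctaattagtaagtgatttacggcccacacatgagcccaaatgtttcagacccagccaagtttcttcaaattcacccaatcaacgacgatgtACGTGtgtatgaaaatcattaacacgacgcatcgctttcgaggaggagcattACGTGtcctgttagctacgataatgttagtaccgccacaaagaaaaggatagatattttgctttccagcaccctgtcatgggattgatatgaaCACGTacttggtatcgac
LTI65: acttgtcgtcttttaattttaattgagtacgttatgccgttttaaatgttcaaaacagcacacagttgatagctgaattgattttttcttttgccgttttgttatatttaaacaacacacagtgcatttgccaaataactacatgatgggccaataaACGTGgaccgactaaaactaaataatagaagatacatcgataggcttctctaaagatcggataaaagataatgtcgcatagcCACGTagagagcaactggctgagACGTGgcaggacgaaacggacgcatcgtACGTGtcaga
AT3G53040: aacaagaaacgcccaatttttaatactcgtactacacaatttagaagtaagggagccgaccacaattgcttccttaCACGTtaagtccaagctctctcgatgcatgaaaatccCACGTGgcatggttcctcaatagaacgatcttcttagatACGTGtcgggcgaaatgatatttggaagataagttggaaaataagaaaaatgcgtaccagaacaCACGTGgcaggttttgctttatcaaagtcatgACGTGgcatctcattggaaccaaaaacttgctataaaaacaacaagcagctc
ATOEP16-2: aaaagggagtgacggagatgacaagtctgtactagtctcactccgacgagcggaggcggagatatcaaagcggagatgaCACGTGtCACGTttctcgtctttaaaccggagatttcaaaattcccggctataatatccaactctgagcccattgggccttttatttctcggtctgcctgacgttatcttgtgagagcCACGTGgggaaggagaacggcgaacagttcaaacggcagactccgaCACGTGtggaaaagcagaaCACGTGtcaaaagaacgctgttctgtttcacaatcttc
PIL6: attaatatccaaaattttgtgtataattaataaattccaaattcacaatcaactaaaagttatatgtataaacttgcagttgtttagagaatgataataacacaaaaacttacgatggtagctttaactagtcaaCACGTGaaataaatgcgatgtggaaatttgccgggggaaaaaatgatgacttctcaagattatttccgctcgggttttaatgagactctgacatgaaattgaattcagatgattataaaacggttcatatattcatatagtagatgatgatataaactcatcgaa
M17: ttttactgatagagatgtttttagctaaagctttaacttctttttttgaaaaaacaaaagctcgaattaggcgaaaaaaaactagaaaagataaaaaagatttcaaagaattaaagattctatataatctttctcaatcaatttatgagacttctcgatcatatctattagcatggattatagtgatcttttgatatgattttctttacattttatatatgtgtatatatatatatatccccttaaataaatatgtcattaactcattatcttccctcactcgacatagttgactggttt
Counted on both strands, the core occurs 3 times before RAB18, 4 times before LTI65, 7 times before AT3G53040 and 9 times before ATOEP16-2. It occurs 2 times before PIL6, as a single G-box, and not at all in this window before M17. The 6 do not stand for all 74 genes, of which ATOEP16-2 and AT3G53040 hold the most cores. OLEO2, TSPO, BETA-TIP and MLS, also called higher at 21 °C, hold none. AT5G35660, PRR7 and PRR3, not called higher, hold 5, 4 and 3. The core was before 79.6% of the 49 genes called higher and 48.0% of the other 25.

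The lines matched their names. HTR4, a gene for H3.3, was at 427 ± 3.13 TPM in Col and 44.7 ± 0.887 TPM in h3.3kd at 21 °C (SD, n = 3, as for every mean below). HTR8, another H3.3 gene, was at 343 ± 12.7 and 18.8 ± 1.73 TPM, and HTR5 at 601 ± 10.12 and 269.6 ± 9.67 TPM, so H3.3 transcripts were reduced but not absent. ELF7 was at 29.2 ± 1.72 TPM in Col and 9.04 ± 0.473 TPM in elf7-3. By the steps between low TPM values, libraries held roughly 6.62e+06 to 1.09e+07 reads, so that 5 TPM of a transcript of 1000 bases corresponded to about 19.2 to 31.2 reads. One library stood apart, replicate 1 of h3.3kd at 27 °C, with 3.66% of its TPM on organelle genes against 0.128% to 0.343% in the other 17.

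The 74 genes spanned W values of 1.01 to 2.88 in Col (median 1.49). Their W ran from -1.77 to 1.002 in h3.3kd (median 0.15), and 30 of the 74 stood lower at 27 than at 21 °C there. In elf7-3 W ran from 0.87 to 3.45 (median 1.67). Mean levels in Col at 27 °C ran from 5.16 TPM for AT5G16460, a seipin-like protein, to 1213 TPM for XTH24, an enzyme that cuts and rejoins wall xyloglucan. All 74 passed the filter of at least 1 TPM in at least 3 libraries that left 20048 genes for the fit.

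A gene can meet the bound in h3.3kd by standing above Col at 21 °C, by standing below it at 27 °C, or by both. The rule sets a lower bound on the sum of these differences but not how it divides between the temperatures. In h3.3kd at 21 °C, 49 of the 74 genes were called higher than in Col and 11 lower, while 12.7% of all genes tested were called higher and 20.8% lower. Calls here are at a Benjamini-Hochberg adjusted p under 0.05 in limma over all genes, and they come from libraries the rule also used. At 27 °C 11 of the 74 were called higher and 36 lower, against 20.2% and 31.6% of all genes. The median difference of the 74 genes from Col was 1.19 on the log2(TPM + 1) scale at 21 °C and -0.36 at 27 °C, where the medians of all genes were -0.05 and -0.07. Of the 664 warm-induced genes, which include the 74, 118 were called higher and 335 lower at 27 °C, with a median of -0.34. The lower level at 27 °C was thus not particular to the 74. At 21 °C 200 of the 664 were called higher and 114 lower, with a median of 0.07.

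Taken at both temperatures, 26 genes were called higher in h3.3kd at 21 °C and not called at 27 °C, 11 were called higher at both, and 12 higher at 21 °C and lower at 27 °C. A further 13 were not called at 21 °C and were lower at 27 °C, 11 were lower at both, and 1, bHLH39, was called at neither. The level of h3.3kd at 21 °C can be placed on the path that Col took from 21 to 27 °C, with 0 for the Col level at 21 °C and 1 for the Col level at 27 °C on the log2 scale. The median gene of the 74 lay at 0.73, 42 of them lay at 0.5 or above, 20 at 1 or above and 16 below 0. Over all 664 warm-induced genes the median was 0.06, and over the 91 genes blunted in both mutants it was 0.03, with 6 of the 91 at 0.5 or above. In those 91 genes, which had to meet the same bound in h3.3kd, 16 were called higher in h3.3kd at 21 °C and 17 lower.

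**Figure D1:**
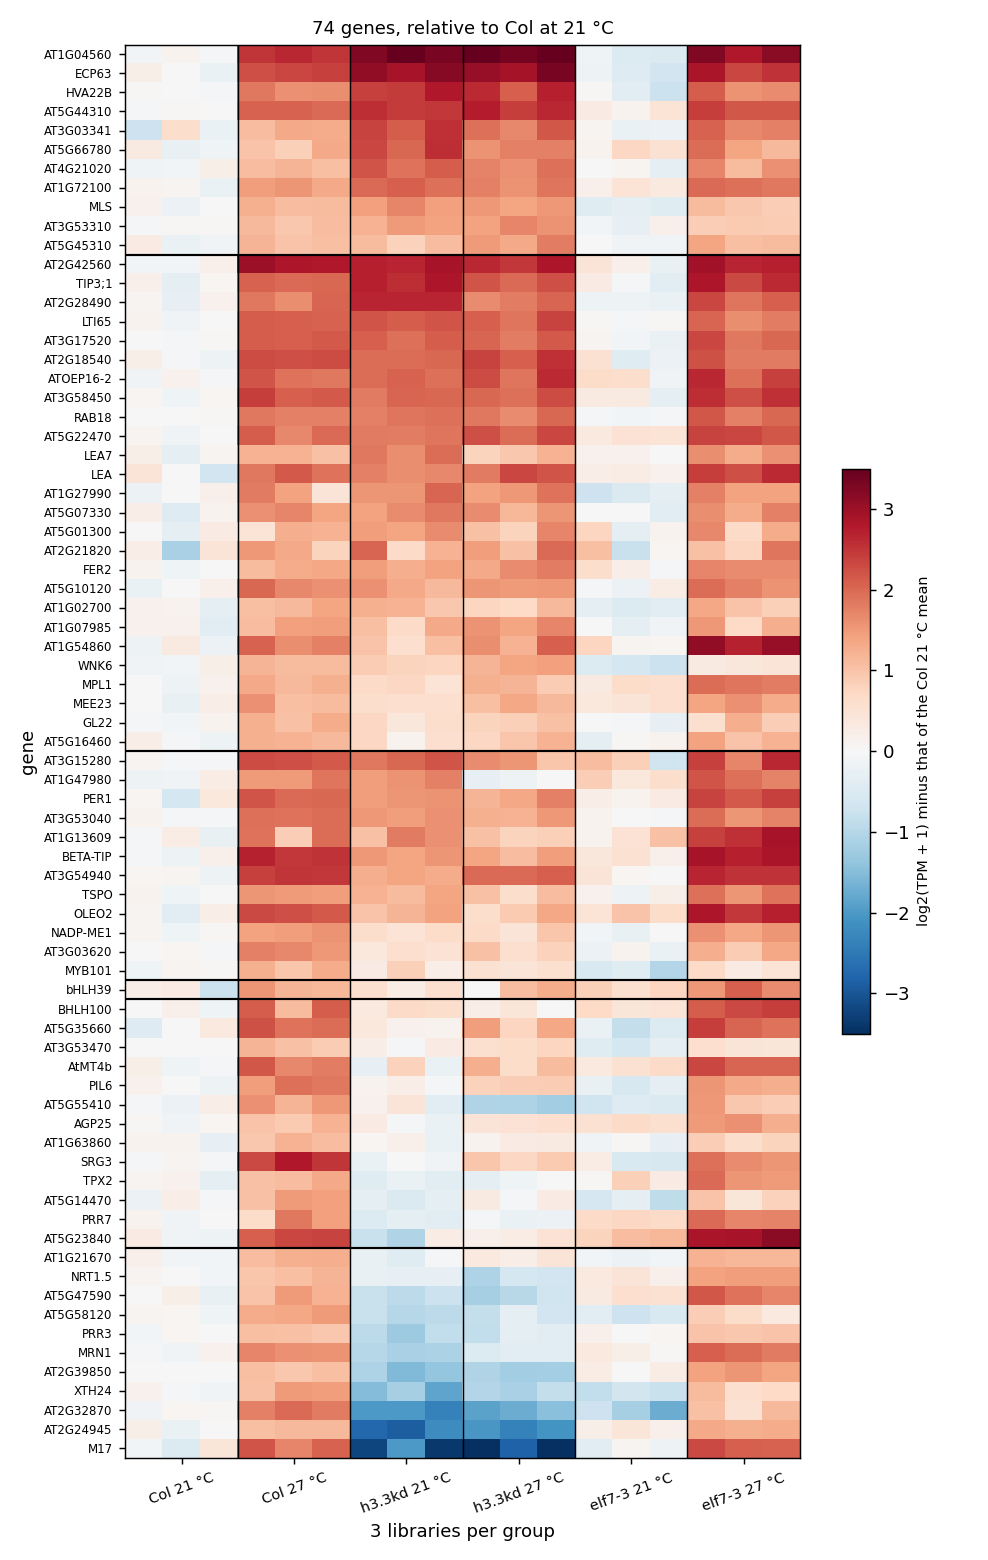
Log2(TPM + 1) of the 74 genes in each of the 18 libraries (columns, 3 per group) minus that of the Col mean at 21 °C, with rows split by the calls of h3.3kd against Col. In the upper 3 blocks (49 genes) h3.3kd is already red at 21 °C, while in the lowest block (11 genes) it is blue at both temperatures.

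**Figure D2:**
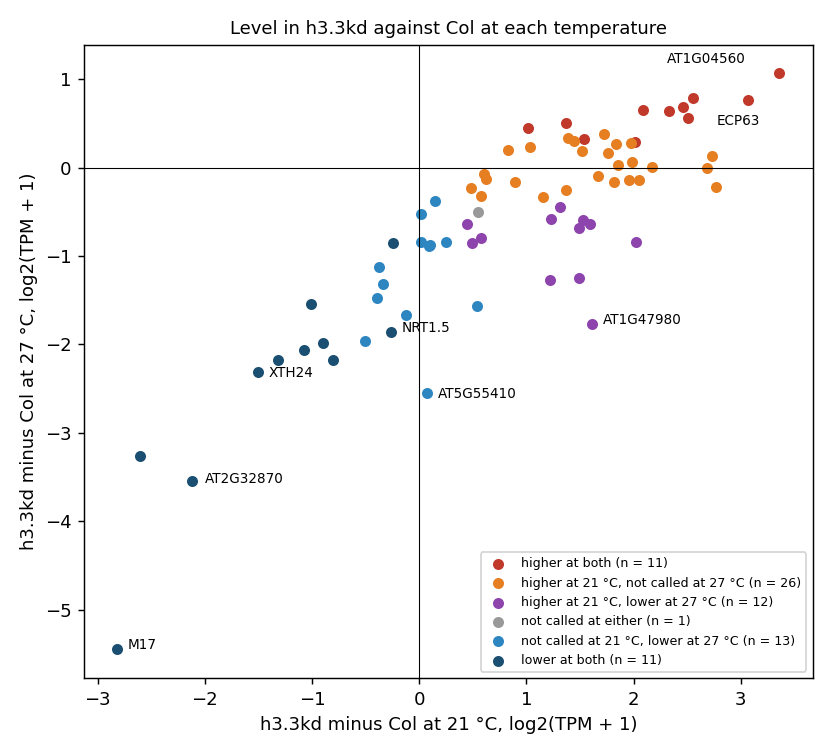
Difference of h3.3kd from Col at 21 °C (horizontal) and at 27 °C (vertical), log2(TPM + 1), for the 74 genes, coloured by their calls. M17 is lowest at both temperatures, and the 26 genes called higher only at 21 °C lie near 0 on the vertical axis.

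Of the 74 genes, 14 have products annotated as LEA protein, dehydrin, oleosin, seed maturation protein or embryonic cell protein, a grouping made after the values were seen. They are RAB18, LEA7, LEA, ECP63, AT1G72100, AT2G21820, AT2G42560, AT3G17520, AT3G53040, AT4G21020, AT5G44310, AT5G66780, OLEO2 and M17. All of these but M17 were called higher in h3.3kd at 21 °C. The table holds 116 genes with such products, of which 88 were tested, and 18 were warm-induced in Col. Among the 74 of the 88 that are not in the set, 23 were called higher in h3.3kd at 21 °C and 11 lower, with a median difference of 0.03.

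RAB18, a dehydrin long used as a reporter of abscisic acid, showed the pattern at a high level. It stood at 70.6, 71.1 and 73.0 TPM in the 3 Col libraries at 21 °C and at 260.5, 245 and 247 TPM at 27 °C. In h3.3kd it stood at 247, 265 and 273 TPM at 21 °C and 260.4, 225 and 289 TPM at 27 °C. In elf7-3 the values were 68.8, 67.0 and 67.6 TPM and 328, 245 and 289 TPM. Every h3.3kd library at 21 °C lay far above Col at 21 °C and among or above the Col libraries at 27 °C, while elf7-3 at 21 °C lay just below Col. The difference from Col was 1.86 ± 0.09 at 21 °C and 0.03 ± 0.09 at 27 °C (log2, ± SE), the latter not called.

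LTI65, also known as RD29B, is a drought and abscisic acid gene whose promoter has been a model for the ACGT elements. Col held 34.5, 29.0 and 31.2 TPM at 21 °C and 140.1, 137 and 136 TPM at 27 °C. The h3.3kd libraries held 148, 139.7 and 149.8 TPM at 21 °C and 137, 118 and 165 TPM at 27 °C. Those of elf7-3 held 32.5, 29.9 and 32.3 TPM and 132, 99.1 and 111 TPM. All 3 h3.3kd values at 21 °C reached the Col level at 27 °C, and the elf7-3 values at 21 °C overlapped those of Col. The difference of h3.3kd from Col was 2.17 ± 0.10 at 21 °C and 0.01 ± 0.10 at 27 °C, the latter not called.

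AT3G17520, an LEA family protein, was among the 10 genes with the highest level in Col at 27 °C. Its values were 49.5, 48.1 and 51.6 TPM in Col at 21 °C, 221, 216 and 222 TPM in Col at 27 °C and 215, 192 and 220.5 TPM in h3.3kd at 21 °C. At 27 °C h3.3kd had 207, 174 and 222 TPM. The elf7-3 libraries had 53.4, 46.8 and 42.5 TPM at 21 °C and 255, 183 and 202 TPM at 27 °C. The h3.3kd libraries overlapped warm Col at either temperature, and the difference from Col was 2.05 ± 0.11 at 21 °C.

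AT2G42560, with an LEA domain, had the largest W in Col, at 2.88. Col rose from 5.50, 5.52 and 6.81 TPM to 54.3, 48.2 and 47.7 TPM. In h3.3kd the values were 45.0, 43.0 and 50.6 TPM at 21 °C and 42.2, 37.6 and 48.6 TPM at 27 °C. In elf7-3 they were 8.42, 6.86 and 4.75 TPM and 51.9, 42.8 and 44.7 TPM. No h3.3kd library at 21 °C came near the Col libraries of that temperature, and the difference was 2.77 ± 0.14.

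LEA7, a further LEA protein, overshot. Its level in h3.3kd at 21 °C was 58.3 ± 6.84 TPM, above the 36.4 ± 2.84 TPM of Col at 27 °C, and it was 32.7 ± 5.36 TPM in h3.3kd at 27 °C. Col at 21 °C had 15.9 ± 3.18 TPM. The W of LEA7 in h3.3kd was thus -0.82, a decline with warmth where Col had a W of 1.14.

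Genes called higher in h3.3kd at both temperatures were led by AT1G04560, an AWPM-19-like membrane protein, and ECP63, an embryonic LEA protein. AT1G04560 read 7.28, 8.62 and 7.70 TPM in Col at 21 °C and 49.5, 54.7 and 48.9 TPM at 27 °C. In h3.3kd it read 82.7, 101 and 87.1 TPM and 113, 88.7 and 125 TPM. In elf7-3 it read 6.94, 5.32 and 5.28 TPM and 82.8, 61.3 and 77.6 TPM. Every h3.3kd library exceeded every Col library of either temperature, with differences of 3.36 ± 0.13 at 21 °C and 1.06 ± 0.13 at 27 °C.

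ECP63 had 8.37, 7.21 and 5.98 TPM in Col at 21 °C, 38.1, 40.4 and 42.2 TPM in Col at 27 °C and 68.7, 59.997 and 74.2 TPM in h3.3kd at 21 °C. At 27 °C h3.3kd had 66.9, 60.1 and 80.9 TPM, and elf7-3 had 6.19, 4.96 and 4.13 and 57.9, 40.5 and 46.0 TPM at 21 and 27 °C. Again all 6 h3.3kd libraries lay above all 6 of Col, by 3.07 ± 0.14 at 21 °C and 0.76 ± 0.14 at 27 °C. HVA22B, whose barley relative is induced by abscisic acid, was at 3.55 ± 0.178 TPM in Col and 25.9 ± 4.28 TPM in h3.3kd at 21 °C. AT5G44310, an LEA protein, was at 4.56 ± 0.131 and 30.6 ± 1.43 TPM. MLS, the malate synthase of the glyoxylate cycle that turns seed oil into sugar, was at 26.3 ± 3.23 and 78.0 ± 8.70 TPM. The same calls applied to the LEA genes AT1G72100, AT4G21020 and AT5G66780, the cold-regulated AT3G03341, the B3 factor AT3G53310 and the coiled-coil protein AT5G45310.

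TIP3;1, a water channel of the vacuole membrane of seeds, had 3.21 ± 0.737 TPM in Col and 26.7 ± 2.37 TPM in h3.3kd at 21 °C, above the 15.9996 ± 0.492 TPM of Col at 27 °C. AT2G28490, of the cupin superfamily to which seed storage globulins belong, had 4.49 ± 0.893 and 33.9 ± 0.0837 TPM at 21 °C. Both stood lower in h3.3kd at 27 °C, at 17.7 ± 1.74 and 18.6 ± 2.68 TPM, and were not called against Col there. AT3G58450, an adenine nucleotide alpha hydrolase-like protein, had 23.9 ± 1.97 TPM in h3.3kd at 21 °C and 29.1 ± 3.67 TPM in Col at 27 °C. The others of this class of 26 were the dehydrin LEA, AT2G21820, ATOEP16-2, the ferritin FER2, the cupin AT2G18540, the poly-ADP-ribose polymerase AT5G22470, the EIN3-family AT5G10120, the GATA factor-like AT1G02700, the kinase WNK6, MPL1, MEE23, GL22, the seipin AT5G16460, AT5G07330, AT5G01300, AT1G54860, AT1G27990 and AT1G07985.

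A second class of 12 genes was called higher than Col in h3.3kd at 21 °C and lower at 27 °C. AT3G53040, an LEA protein, had 38.5, 33.9 and 33.8 TPM in Col at 21 °C and 138, 134 and 140.1 TPM at 27 °C. In h3.3kd it had 102, 99.96 and 109 TPM at 21 °C and 85.7, 83.9 and 103 TPM at 27 °C. The elf7-3 libraries had 38.4, 35.6 and 33.8 TPM and 141, 106 and 121 TPM. The h3.3kd values of both temperatures lay between those of cool and warm Col without overlap, 1.53 ± 0.09 above the former and -0.59 from the latter (log2).

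BETA-TIP, a vacuolar water channel closely related to TIP3;1, held 4.84, 4.35 and 5.86 TPM in Col at 21 °C, 38.0, 32.4 and 33.6 TPM in Col at 27 °C and 16.4, 14.7 and 16.6 TPM in h3.3kd at 21 °C. It held 14.8, 11.8 and 15.6 TPM in h3.3kd at 27 °C, and 6.91, 7.64 and 5.79 then 43.8, 38.5 and 42.4 TPM in elf7-3. OLEO2, an oleosin that coats seed oil bodies, had 4.15, 2.66 and 4.68 TPM in cool and 22.8, 21.996 and 20.5 TPM in warm Col. For both genes the h3.3kd libraries formed a middle level between cool and warm Col, with overlapping values at both temperatures, and OLEO2 in h3.3kd read 8.66, 9.91 and 11.7 TPM at 21 °C and 6.42, 8.10 and 11.3 TPM at 27 °C. Its elf7-3 values of 6.96 ± 1.499 and 30.0 ± 3.78 TPM were above Col at both temperatures, with the call at 21 °C only.

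AT1G47980, a desiccation-like protein, had the largest gap between Col and h3.3kd, with W of 1.62 and -1.77. It read 2.38, 2.52 and 3.57 TPM in Col at 21 °C and 9.71, 9.66 and 12.9 TPM at 27 °C. In h3.3kd it read 9.53, 10.3 and 12.1 TPM at 21 °C and 2.11, 2.35 and 2.80 TPM at 27 °C. In elf7-3 it read 5.90, 3.90 and 4.84 TPM and 16.6, 13.5 and 11.8 TPM. The h3.3kd line thus ran opposite to Col, with cool values overlapping warm Col and warm values overlapping cool Col. PER1, a peroxiredoxin of dry seeds, went from 12.4 ± 4.27 to 55.5 ± 4.73 TPM in Col and had 37.9 ± 1.502 and 35.8 ± 7.75 TPM in h3.3kd. AT3G54940, a papain-type protease, went from 8.12 ± 0.869 to 49.4 ± 1.98 TPM in Col and from 21.6 ± 0.880 to 35.9 ± 1.45 TPM in h3.3kd.

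The remaining genes of this class were TSPO, a membrane protein induced by abscisic acid, NADP-ME1, the transcription factor MYB101, the MATE transporter AT3G03620, the defensin-like AT1G13609 and AT3G15280. AT1G13609 had 12.8, 5.65 and 13.2 TPM in Col at 27 °C against 6.48, 5.34 and 5.56 TPM in h3.3kd, and these overlapped. The call of AT1G13609 at 27 °C was lost in 9 of 26 alternative fits, with adjusted p (limma) of up to 0.182, among them those without replicate 1 or 3 of warm Col or replicate 2 or 3 of warm h3.3kd. That of AT3G15280 was lost in 8, with adjusted p (limma) of up to 0.16, among them those without any one library of warm Col or replicate 2 or 3 of warm h3.3kd.

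**Figure D3:**
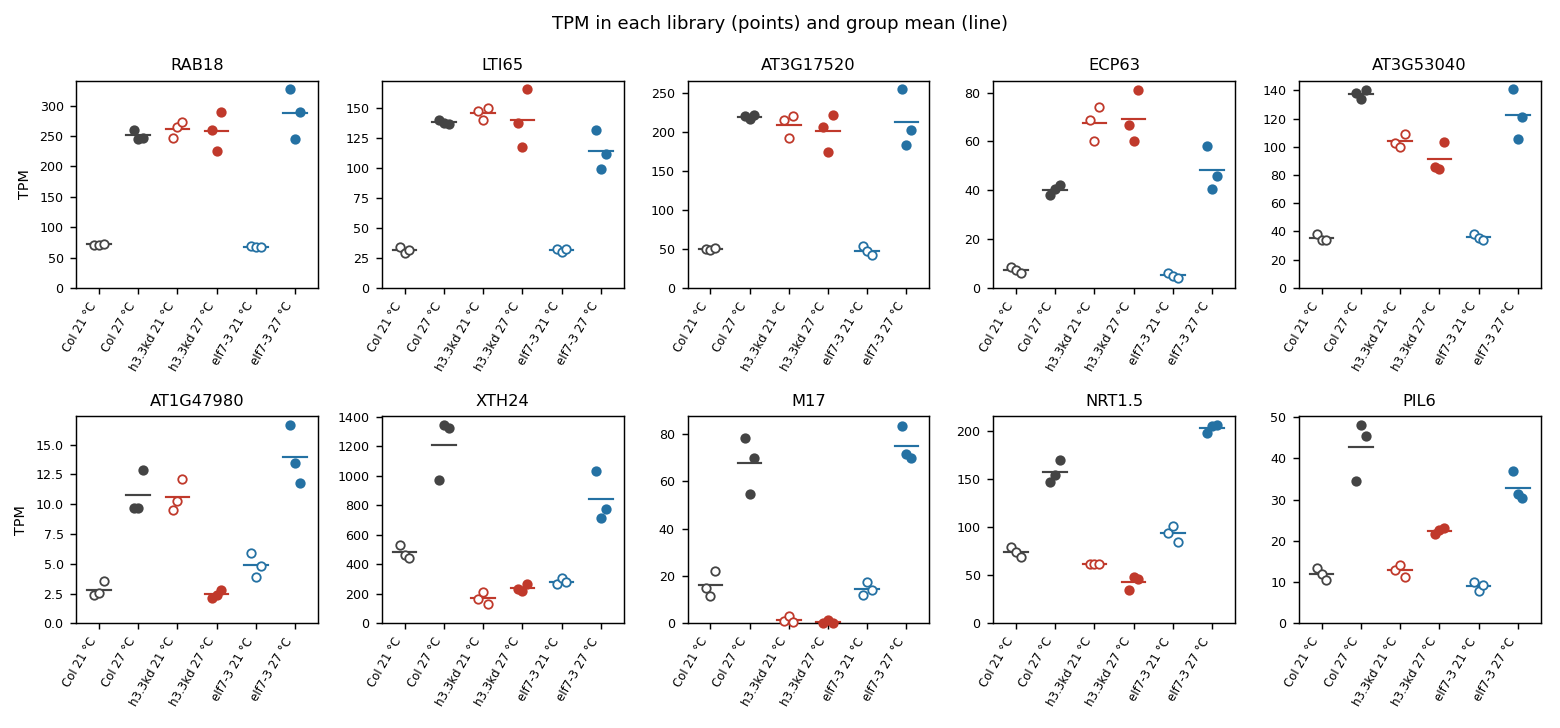
TPM of 10 of the genes in each library (open points 21 °C, filled points 27 °C) with the group mean as a line, on separate linear axes from 0. RAB18, LTI65 and AT3G17520 in h3.3kd stand near warm Col at both temperatures, while XTH24, M17 and NRT1.5 in h3.3kd stand below Col at both.

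The remaining 25 genes were not called higher in h3.3kd at 21 °C, and their products are mostly of other kinds. M17, annotated as a glycine-rich or LEA protein, was the one LEA gene of the set called lower in h3.3kd at both temperatures. It had 14.8, 11.3 and 21.9 TPM in Col at 21 °C and 78.0, 54.7 and 69.8 TPM at 27 °C. In h3.3kd it had 0.836, 3.25 and 0.641 TPM and 0.206, 1.4005 and 0.292 TPM, and in elf7-3 11.99, 17.3 and 14.0 TPM and 83.2, 71.7 and 69.9 TPM. All 6 h3.3kd libraries lay below all 12 others, and the log2(TPM + 1) differences were -2.82 ± 0.31 at 21 °C and -5.45 ± 0.31 at 27 °C.

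BHLH100, a regulator of iron deficiency genes, lies beside M17 on chromosome 2 with 1 gene and 6997 bases between them, the only pair of the set with at most 2 genes between. BHLH100 was at 0.746, 0.984 and 0.581 TPM in Col at 21 °C and 6.72, 2.83 and 6.65 TPM at 27 °C. It was at 1.22, 1.81 and 1.69 TPM and 1.09, 1.35 and 0.770 TPM in h3.3kd, and 1.89, 1.39 and 1.47 TPM and 6.74, 7.78 and 8.42 TPM in elf7-3. So at 27 °C h3.3kd was below both other genotypes in every library, by -1.57 ± 0.22 against Col. Its relative bHLH39 had 17.39, 13.3 and 13.1 TPM in Col and 5.26, 12.4 and 14.6 TPM in h3.3kd at 27 °C, which overlapped, the lowest value being that of the library rich in organelle genes. On the list of 23 iron uptake genes, 4 were called higher and 12 lower in h3.3kd at 27 °C, with a median of -0.62, and 5 of its 8 warm-induced genes were blunted in both mutants. Summed TPM of 13 root markers, none of them at 0 in any library, was 384 to 455 in warm Col and 239 to 290 in warm h3.3kd. IRT1 is on both lists, and without it the sum was 330 to 362 in warm Col and 212 to 244 in warm h3.3kd. The part of root share in the values of the iron genes was not tested, and in whole seedlings fewer cells of a type and less RNA per cell cannot be told apart.

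XTH24 was the most abundant of the 74 genes. Col held 531, 466 and 444 TPM at 21 °C and 972, 1343 and 1323 TPM at 27 °C. The h3.3kd libraries held 166, 215 and 133 TPM and 235, 219 and 269 TPM. Those of elf7-3 held 264, 305 and 281 TPM and 1033, 716 and 774 TPM. XTH24 in h3.3kd was below Col at both temperatures, by -1.505 ± 0.16 and -2.32 ± 0.16, and even warm h3.3kd did not reach cool Col. In elf7-3 it was also called lower, by -0.76 ± 0.16 at 21 °C and -0.53 ± 0.16 at 27 °C, with a W of 1.17 times that of Col. Of the other 23 tested genes on a list of cell wall expansion, 2 were called higher and 9 lower in h3.3kd at 21 °C, and 3 and 14 at 27 °C.

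NRT1.5, which loads nitrate into the root xylem, rose with warmth in Col and elf7-3 and stood lower at 27 °C in h3.3kd. Col had 79.5, 74.4 and 68.8 TPM at 21 °C and 147, 154 and 169.9 TPM at 27 °C. In h3.3kd the libraries had 61.9, 61.1 and 61.2 TPM at 21 °C and 34.7, 47.9 and 46.3 TPM at 27 °C. The elf7-3 libraries had 94.2, 101 and 84.2 TPM and 198, 205 and 206 TPM. The gap to Col was -0.27 ± 0.09 at 21 °C, and -1.86 ± 0.09 at 27 °C. The call at 21 °C was lost in 7 of 26 alternative fits, with adjusted p (limma) of up to 0.145, among them those without replicate 1 or 2 of cool Col or any one library of cool h3.3kd. Summed TPM of the 13 root markers was 237 to 242 in cool and 384 to 455 in warm Col, 220 to 240 in cool and 239 to 290 in warm h3.3kd, and 360 to 398 in cool and 378 to 457 in warm elf7-3. Like NRT1.5, the sum was higher in warm than in cool Col and lower in warm h3.3kd than in warm Col. The markers did not move as one. In Col, mean PHO1 went from 51.5 to 46.5 TPM with warmth and SKOR from 9.96 to 6.34 TPM, while the others rose, IRT1 from 12.8 to 80.5 TPM. PHO1 was at 46.0 TPM in warm h3.3kd, near warm Col, and MYB36 and SCR had higher means there than in warm Col. Within h3.3kd NRT1.5 read lower in warmth while the root sums of both temperatures overlapped, and within elf7-3 NRT1.5 read higher in warmth while the sums again overlapped. The part of root share in the value of NRT1.5 was not tested.

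PIL6, known as PIF5, is one of the PIF transcription factors that promote elongation in shade and warmth. It had 13.5, 12.01 and 10.4 TPM in Col at 21 °C and 34.6, 48.1 and 45.5 TPM at 27 °C. In h3.3kd it had 13.0, 14.2 and 11.3 TPM at 21 °C and 21.6, 22.7 and 23.0 TPM at 27 °C, and in elf7-3 9.91, 7.88 and 9.24 TPM and 36.9, 31.4 and 30.4 TPM. The cool libraries of h3.3kd and Col overlapped, and the warm ones did not, with a difference of -0.89 ± 0.12. PIL6 kept 0.43 of its Col response in h3.3kd. It was the only one of the 8 warm-induced genes on the list of warm and shade regulators to fall in the set.

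PRR7 and PRR3, repressors of the circadian clock, made up 2 of the 7 warm-induced clock genes on a list of 25. PRR7 had 2.03, 1.52 and 1.74 TPM in Col at 21 °C and 3.31, 8.87 and 6.5002 TPM at 27 °C. In h3.3kd it had 0.998, 1.18 and 1.103 TPM and 1.66, 1.36 and 1.38 TPM, below every Col library of the same temperature. The PRR7 difference at 21 °C, at levels near the filter of 1 TPM, was not called and gained the call in 1 of 26 alternative fits. The elf7-3 libraries had 3.40, 3.54 and 3.40 TPM and 9.94, 8.07 and 8.23 TPM. PRR3 went from 11.9 ± 0.728 to 25.05 ± 0.890 TPM in Col and from 5.46 ± 0.923 to 8.08 ± 1.70 TPM in h3.3kd. Both were called lower in h3.3kd at 27 °C, PRR7 by -1.47 ± 0.20 and PRR3 by -1.54 ± 0.12. Levels of clock genes depend on the hour of harvest, which the labels do not give.

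SRG3, annotated as senescence-related, had 24.7, 27.2 and 24.0 TPM in cool Col and 129, 182 and 147 TPM in warm Col, against 21.6, 25.01 and 23.0 and 51.0, 42.2 and 48.4 TPM in h3.3kd. Its elf7-3 values were 30.2, 17.1 and 16.9 and 99.4, 81.6 and 75.1 TPM, so that the warm level was also called lower in elf7-3, by -0.83 ± 0.17. AT2G32870, a TRAF-like protein, had 11.1 ± 0.843 and 42.7 ± 3.59 TPM in Col and 1.78 ± 0.374 and 2.77 ± 0.566 TPM in h3.3kd. AT5G55410, a lipid-transfer-like protein, had overlapping values in cool Col and h3.3kd, with means of 6.88 ± 1.25 and 7.46 ± 2.37 TPM, and stood at 20.4 ± 3.12 and 2.63 ± 0.204 TPM in warmth. AT1G21670 had 95.1 ± 6.70 and 52.2 ± 4.31 TPM, and AT3G53470, a phosphoglycerate mutase-like protein, 87.5 ± 8.83 and 66.7 ± 4.57 TPM, in warm Col and h3.3kd. The call of AT1G21670 at 21 °C was lost in 6 of 26 alternative fits, with adjusted p (limma) of up to 0.223, among them those without replicate 1 of cool Col or replicate 1 or 2 of cool h3.3kd.

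Lower at both temperatures were also MRN1, the marneral synthase, the small heat shock protein AT5G47590, the subtilisin-like AT2G39850, the resistance-type protein AT5G58120 and AT2G24945. Lower at 27 °C and not called at 21 °C were also the peroxidase TPX2, AT5G23840, the kinase AT5G14470, the resistance-type protein AT1G63860, AGP25, the metallothionein AtMT4b and the glycine-rich AT5G35660.

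In elf7-3 at 21 °C 14 of the 74 genes were called higher and 12 lower (13.3% and 15.4% of all genes tested), and at 27 °C 15 higher and 11 lower (16.4% and 18.5%). In either direction 28.7% of all genes were called at 21 °C and 34.9% at 27 °C, and 26 of the 74 at each. The count of calls at 21 °C fell from 26 to 15 without replicate 2 of cool elf7-3 and to 16 without replicate 2 of cool Col, and that at 27 °C, also 26, fell to 16 without replicate 2 of warm Col. The median difference was 0.01 at 21 °C and 0.18 at 27 °C.

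Genes of the abscisic acid and cold list that are outside the set help to place it. Of 30 tested genes on that list, 3 (RAB18, LTI65 and LEA7) are in the set. Among the other 27, 9 were called higher in h3.3kd at 21 °C and 3 lower, and 8 and 5 at 27 °C. EM6, a seed LEA protein listed as GEA6, was at 13.4 ± 2.27 TPM in cool Col, 39.5 ± 1.255 in warm Col, 48.3 ± 3.504 in cool h3.3kd and 49.1 ± 5.35 in warm h3.3kd. Its cool difference was 1.78 ± 0.12 with an adjusted p of 6.6e-09 (limma). EM6 showed the course of the set in h3.3kd but kept too little of its response in elf7-3 for the rule. ABI5, a bZIP factor of abscisic acid signalling in seeds, was at 7.99 ± 1.34 TPM in cool Col and 22.6 ± 2.04 TPM in cool h3.3kd, a difference of 1.4003 ± 0.13 (adjusted p 2.9e-07, limma). CYP707A1, which breaks down abscisic acid, was lower, at 8.28 ± 0.909 and 3.09 ± 0.631 TPM, by -1.19 ± 0.22 (adjusted p 0.00054, limma). ABF3, a further bZIP factor, rose with warmth in both, from 17.36 ± 1.72 to 68.5 ± 1.27 TPM in Col and from 25.2 ± 5.88 to 81.9 ± 18.05 TPM in h3.3kd. Also called higher in h3.3kd at 21 °C were COR15A, COR15B, LTI78, ERD14, RAB28, EM1 and ABF3, and also called lower were COR47 and RD22. Several of these did not follow the course of the set. COR15A, COR15B and LTI78 had lower means at 27 than at 21 °C in both Col and h3.3kd. EM1, like ABF3, rose in both, from 3.05 to 7.56 TPM in Col and from 10.5 to 25.4 TPM in h3.3kd. Other genes of the pathway, ABI1, ABI2, ABF2, ABF4, NCED3, CYP707A3, HAI1, HAI2, HAI3 and RD26, were not called at 21 °C. CYP707A3, a relative of CYP707A1, was called higher in h3.3kd at 27 °C, by 0.59.

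Of 12 tested genes on the seed storage and oil body list other than OLEO2, 8 were called lower in h3.3kd at 21 °C and the other 4 were not called, with a median difference of -1.13. The 8 were the storage proteins CRU2, CRU3, SESA1, SESA2, SESA3, SESA4 and SESA5 and the B3 transcription factor ABI3, a regulator of seed maturation. Those not called were the storage proteins CRA1 and PAP85 and the oleosins OLEO1 and OLEO4. The summed level of 6 seed markers (SESA1, SESA2, CRA1, CRU3, OLEO1 and OLEO2, none at 0 in any library) was 95.3 to 154 TPM in cool Col and 57.4 to 102 TPM in cool h3.3kd. At 27 °C it was 105 to 139 TPM in Col and 196 to 253 TPM in h3.3kd. Among these 6 markers, CRU3 and CRA1 exceeded Col by the most TPM at 27 °C. CRU3 had means of 35.1 TPM in Col and 115 TPM in h3.3kd. CRA1 had 56.4 and 79.9 TPM and was not called (adjusted p 0.057, limma). OLEO2, which the rule chose, went the other way, with 21.8 and 8.62 TPM. Of the 12 genes on the list, 4 were called higher in h3.3kd at 27 °C (CRU3, SESA3, SESA5 and PAP85) and 1, ABI3, lower. PAP85 had means of 7.00 TPM in Col and 36.0 TPM in h3.3kd there.

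The promoters were compared over the 300 bases before each annotated start, on both strands, for 74 genes and 19920 tested genes with a start. The G-box CACGTG was present before 39.2% of the 74 genes and 8.11% of all tested genes. It was present before 14.6% of the 664 warm-induced genes and 9.89% of the 91 genes blunted in both mutants. The abscisic acid element ACGTGTC was present before 33.8% of the 74, 67 of the 664 warm-induced genes and 4.68% of all. Its variant ACGTGGC, added after the values were seen, was present before 29.7% of the 74 and 4.32% of all, and the core ACGTG before 68.9% and 26.4%. Of the warm-induced genes 8.43% held the variant and 35.1% the core. These motifs overlap: each G-box and each abscisic acid element contains the core, and both forms of the element can lie across a G-box.

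The 49 genes called higher in h3.3kd at 21 °C held the G-box in 51.0% and ACGTGTC in 44.9% of cases, while of the other 25 genes 4 held the G-box and 3 held ACGTGTC, a division made after the values were seen. The E-box CATGTG that PIF proteins also bind was before 23.0% of the 74 and 13.2% of all genes. It was before 19.9% of the warm-induced genes and 24.6% of the 57 genes blunted only in elf7-3, so its share was not particular to the 74. The heat shock elements GAANNTTC and TTCNNGAA were before 8.11% and 6.76% of the 74, and before 11.0% and 9.21% of all genes. The evening element AAATATC was before 16.2% and 14.5%, the auxin element TGTCTC before 13 of the 74 and 12.9% of all, and the TATA letters TATAAA before 47.3% and 51.7%. The auxin element was before 14.5% of the warm-induced genes and 22.8% of the 57 genes blunted only in elf7-3. The drought and cold element GCCGAC was before 5.41% and 3.33%, the site II element TGGGCC before 18.9% and 17.3%, the telo box AAACCCT before 2.7% and 7.39%, and the W box TTGACC before 9.46% and 13.9%. These shares are descriptions of letters in a window, and a match is not a bound site.

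**Figure D4:**
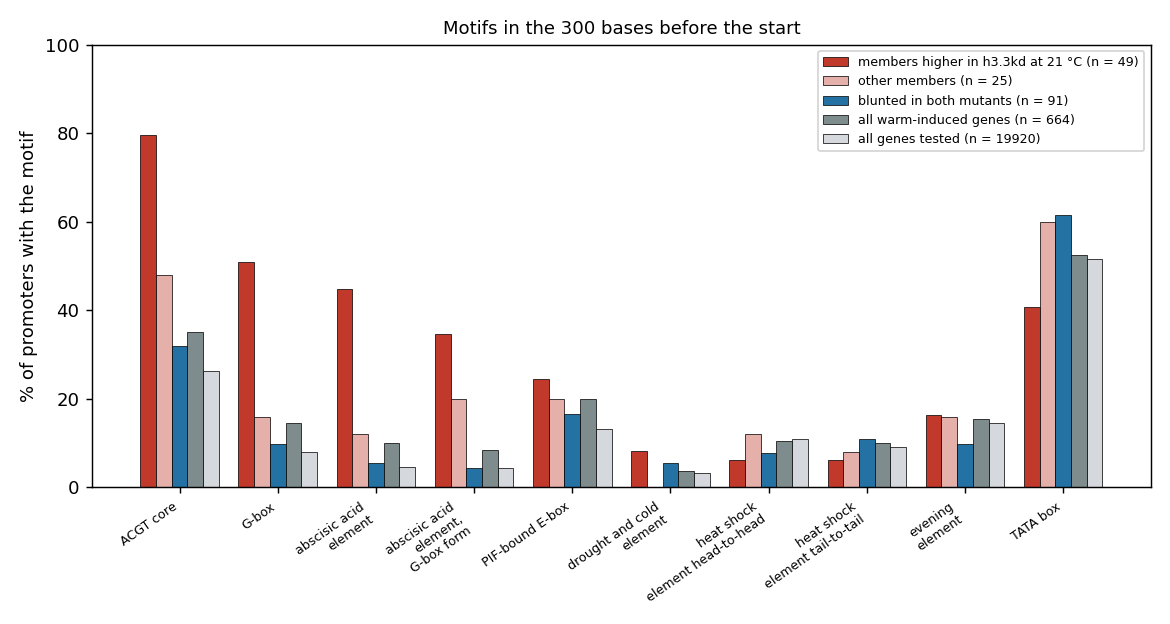
Percentage of promoters (300 bases before the start, both strands) that hold each motif, for 5 sets of genes. The G-box stands at 51.0% in the 49 members higher in h3.3kd at 21 °C and at 8.11% in all tested genes, while the TATA letters stand at 40.8% and 51.7%.

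The 74 genes are short. Their median annotated transcript is 1223 bases long, against 1677 bases for tested genes and 1686.5 bases for the warm-induced genes. Their median coding length is 829.5 bases, against 1152 bases. The median number of exons is 3 against 4, and 62.2% of the 74 have at most 3 exons, as do 57.8% of the warm-induced genes and 40.9% of the tested genes. They lie on all 5 chromosomes, with 17, 16, 14, 3 and 24 genes on chromosomes 1 to 5.

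The bounds of the rule cut through a continuum. Just inside the level bound were AT5G16460, BHLH100 and AT3G03620 at 5.16, 5.40 and 5.47 TPM in warm Col, and just outside WOX2, AT4G27530 and BGAL7 at 4.94, 4.83 and 4.76 TPM. Just inside the bound on W in Col were PRR3, AT2G39850 and AT5G01300 at 1.01, 1.02 and 1.03, and just outside STP1, AT1G05805 and AT5G22608 at 0.99, 0.98 and 0.98. The share of W kept in h3.3kd was 0.498, 0.492 and 0.491 for AT5G45310, AT1G21670 and AT5G35660 inside, and 0.507, 0.509 and 0.524 for NHX3, BMY3 and AT1G54870 outside. The share kept in elf7-3 was 0.753, 0.759 and 0.764 for MEE23, AT3G15280 and SRG3 inside, and 0.748, 0.727 and 0.727 for GASA6, CYP705A12 and ASY2 outside. When each of the 18 libraries was left out in turn, 42 of the 74 genes met the rule every time, among them RAB18, LTI65, AT3G17520, ECP63, M17, NRT1.5 and PIL6. MEE23 met it least often, in 9 of 18.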

How the data were processed

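RNA-seq of whole seedlings gave 18 libraries in 6 groups. The authors deposited 1 table of TPM per gene. Per the submitters' processing notes, DESeq2 1.26.0, HTSeq 0.11.2, HISAT2 and fastp 0.20.1 were used, without stated roles, on build TAIR10; the row names carry the Araport11.447 annotation. How TPM were computed and the library strandedness are not given in the sources used here. Every column name fitted a single library's labels. Depth was estimated from the steps between low values and is approximate.

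Log2(TPM + 1) was fitted with limma 3.58.1 (R 4.3.3) over all 6 groups with a mean-dependent prior (12 residual degrees of freedom), for the 20048 genes that reached 1 TPM in 3 or more libraries. Calls were made at a Benjamini-Hochberg adjusted p under 0.05 over all genes, two-sided, in 9 comparisons. The fit was tested on simulated data. TPM + 1 shrinks changes of low genes. Coordinates, products and promoters come from TAIR10.1 (RefSeq), which held 27445 of 27655 loci. Tables and plots were made in Python 3.11.15 (numpy 2.4.6, pandas 2.3.3, matplotlib 3.10.9). The genes, lists and motifs were chosen with earlier results of these data known. Genes were named for the 20 largest gaps between Col and h3.3kd, the 10 highest levels, the 10 smallest interaction p, shared lists, products or neighbourhood, and closeness to a bound; others were named after their values were seen.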

Additional observations from a re-analysis of the deposited data

Results flagged for a closer look

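Warmth responses of 8 of the 12 tested genes on the seed storage and oil body list that are outside the set differed between h3.3kd and Col by limma's interaction test (adjusted p under 0.05). The response of h3.3kd minus that of Col was 2.3 for SESA1, 1.69 for SESA2, 2.83 for SESA3, 1.46 for SESA4, 3.45 for SESA5, 0.99 for CRA1, 3.22 for CRU3 and 2.51 for PAP85 on the log2(TPM + 1) scale. CRU3, a cruciferin, had mean levels of 40.3 and 35.1 TPM in Col at 21 and 27 °C and of 13.7 and 115 TPM in h3.3kd. SESA1, an albumin, had 16.7 and 2.59 TPM in Col and 4.75 and 4.25 TPM in h3.3kd.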

How the results depend on the processing

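The rule gave 54 to 107 genes under other settings, from 54 with at least 0.9 of the Col response kept in elf7-3 to 107 with a bound of 1 TPM, and 67 to 83 with each library left out. With each library left out, the calls of h3.3kd against Col among the 74 genes numbered 46 to 49 higher and 9 to 12 lower at 21 °C, and 8 to 12 higher and 34 to 37 lower at 27 °C. Those of elf7-3 numbered 15 to 26 at 21 °C (8 to 14 higher, 7 to 13 lower) and 16 to 28 at 27 °C (10 to 17 higher, 6 to 13 lower), and its interaction, which the rule used and which is given only as a count, was called in 1 to 4 genes. It was called in 2 genes with library weights, with organelle genes removed and with a replicate block, against 1. Deviations from group means were correlated between same-numbered libraries over 7 pairs of groups. Of 21 pairs of libraries, 0 correlated above 0.1 (range -0.15 to 0.08). No shared deviation over all genes was thus seen, but this cannot show whether same-numbered libraries were handled together. The replicate block moved no other count by over 1.5 times. Differences of h3.3kd from Col for the genes given with values were recomputed 1768 times: 1717 kept direction and call, 30 lost the call and 8 gained it. The 13 that changed sign were of uncalled differences near 0. At 27 °C AT2G28490 gave 0.020 with library weights, 0.085 with median-of-ratios scaling, 0.0095 with organelle genes removed and -0.11 to 0.094 with libraries left out. LTI65 gave -0.023 with library weights and -0.12 to 0.13 with libraries left out, and RAB18 -0.052 to 0.13. At 21 °C AT5G55410 gave -0.12 to 0.30. The cause was not tested. Depth limits genes near 1 TPM, where a library holds few reads.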
